A study of Canis lupus familiaris with 55 samples.

Results

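Gonads of XX canine embryos collected at gestational day 35 (d35) were compared by genotype at a guanine insertion on canine chromosome 9 (CFA9). The comparison holds 9 of the 55 RNA-seq libraries of the study, each made from the paired gonads of 1 embryo. Of these, 4 embryos were homozygous for the insertion (C3509, C3510 and C3511 of litter L194, and C3571 of litter L208). The other 5 were heterozygous (C3525 of litter L197, C3572, C3573 and C3575 of litter L208, and C3616 of litter L217). Members were chosen by sex and age in the sample labels and by the genotype and litter that the study lists for each embryo, and the L precedes the study's litter number. No measured value was used.

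All 9 embryos were *SRY*-negative and came from the American cocker spaniel and beagle pedigree in which XX disorder of sex development (XX DSD) is inherited. The study chose embryos that carried at least 1 insertion allele, and classed all 9 as at risk. Heterozygous embryos were therefore the comparison group, not wild type. The only XX library near this age from outside the pedigree was a control pool of 6 embryos of d34 from beagle parents without the insertion, whose values are a single measurement. Their XY littermates, 4 embryos of litters L208 and L217, carried the insertion too (3 homozygous, C3574, C3618 and C3619, and 1 heterozygous, C3617). Among XX embryos of d39, litter L220 held 1 homozygote (C3630) and 2 heterozygotes (C3632 and C3633). Genotype and litter overlap only in part: L208 was the only XX d35 litter with both genotypes, and 3 of the 4 homozygotes were full littermates from L194. Each embryo is a separate animal, and p-values measure the spread between these embryos, littermates included.

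In the mammalian ovary, R-spondin 1 (*RSPO1*) and *WNT4* act through LGR and Frizzled-LRP receptors to stabilise beta-catenin (*CTNNB1*), which with TCF and LEF factors switches on targets such as *AXIN2*. *FOXL2* maintains the granulosa cell fate. In the testis, *SOX9* drives Sertoli cell differentiation and production of anti-Müllerian hormone (*AMH*), and the pathways oppose each other. The insertion was found by the study as a variant associated with XX DSD.

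The insertion adds a guanine at CFA9 position 6048201 (CanFam3). In the annotation used for the expression values this position lies in intron 1 (6047996 to 6049354) of *BTBD17*, a gene of 3 exons on the plus strand from 6047911 to 6052088. The sequences below are shown because they are what distinguishes the alleles. The top line joins the overlapping sites that the study lists across the insertion, and the other lines are those sites with the factor families that the study names for them. The inserted base is in capitals and is at position 8 of the joined run of 19 letters.
joined: ggcagccGtggggtgtgaa
bHLH factors (LYL1, TAL1, NHLH1, NHLH2): ggcagccGtg
GLIS3 and paired box factors: gccGtggggtgtgaa
EGR factors: cGtggggt
ZNF740 and SP factors: Gtggggtgtg
A listed site is a sequence match and no binding was measured in these libraries.

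Expression of *BTBD17* was at or near 0 in both genotypes. It was listed at 0 in the homozygotes C3509 and C3571 and at 0.051 and 0.082 FPKM (a fragment count scaled to transcript length and library size) in C3510 and C3511. Among heterozygotes it was listed at 0 in C3525, C3572 and C3575 and at 0.063 and 0.068 FPKM in C3573 and C3616. *KIF19*, a kinesin gene next to it, reached at most 0.113 FPKM and *GPR142*, a G protein-coupled receptor gene, at most 0.245 FPKM. These 3 genes were too low to be tested.

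The labelled sex was checked against testis genes. *SOX9* lay between 1.02 and 6.85 FPKM in the 9 XX gonads and between 62.7 and 89.2 FPKM in the 4 XY gonads of d35. *AMH* lay between 3.57 and 33.6 FPKM in XX and between 1020 and 2264 FPKM in XY. Neither genotype of XX gonad overlapped the XY gonads in these genes. Relative depth, estimated from the spacing of low FPKM values because the files hold no counts, ranged from 0.289 (C3575) to 1.16 (C3573) of that of C3510. C3575 stood apart on the first principal component (score 78.2, the next being 25.6 for C3573), and the lowest correlation between libraries was 0.890, between C3575 and C3511. The latter also held the most erythroid RNA, with a summed level of 9 erythroid genes of 380 FPKM against 60.7 to 81.7 FPKM in the other homozygotes. Some results in which these libraries were extreme are also given without them, and others only with them.

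Few genes were called between the genotypes. Of 13626 annotated genes tested with limma on log2(FPKM + 1), 2 (0.0147%) were called at an adjusted p under 0.05, both higher in homozygotes and both without a symbol in the file. The count was also 2 without C3575 and without C3511, and 1 without C3525 or C3573. At an unadjusted p under 0.05 there were 2738 genes (20.1%), of which 1401 were higher (10.3%) and 1337 lower (9.81%) in homozygotes. Scaled to a common upper quartile the split was 1666 higher and 1016 lower, with a shift of the median of 0.045 on the log2 scale. The 4 homozygous values lay above all 5 heterozygous values in 612 genes (4.49%) and below them in 637 (4.67%).

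Both called genes were listed at 0 in every heterozygote, so they were tested only through their level in homozygotes. ENSCAFG00000026726 measured 62.7, 19.5, 51.8 and 31.5 FPKM in C3509, C3510, C3511 and C3571 (adjusted p = 8.84e-05). ENSCAFG00000026040 measured 77.2, 11.97, 29.6 and 12.9 FPKM (adjusted p = 0.0106). The groups do not overlap, and no fold can be given against 0. The gene with the next lowest p, ENSCAFG00000014250, measured 9.07, 9.91, 10.6 and 9.69 FPKM in homozygotes and 15.9, 14.9, 15.0, 16.96 and 15.5 FPKM in C3525, C3572, C3573, C3575 and C3616 (log2 difference -0.62, SE 0.085), and did not pass the adjusted threshold (adjusted p = 0.134). Its level in every heterozygote was above that in every homozygote.

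In the second table, which holds loci assembled from the reads with the annotation as a guide, 3 of 17482 loci were called (0.0172%), all higher in homozygotes, all listed at 0 in the heterozygotes and thus tested only through the homozygotes. All 3 were short. ENSCAFG00000026726 spans 101 bases of the minus strand at chr30:10536862-10536962, a locus without a gene name 127 bases at chr5:35042312-35042438, and *SNORD91*, a small nucleolar RNA, 95 bases of the minus strand at chr9:46423917-46424011. *SNORD91* measured 56.7, 8.71, 21.0 and 9.50 FPKM in the homozygotes (adjusted p = 0.0274). These values ran in the same order as those of ENSCAFG00000026040 above, and whether the names stand for the same gene was not tested. Across all 55 libraries of the study these loci were above 0 in 36, 21 and 37. In the d34 XX control pool, whose embryos lack the insertion, they measured 72.2, 16.6 and 22.2 FPKM. In the XY gonads of d35, ENSCAFG00000026726 measured 12.4 FPKM in the homozygote C3574. It was listed at 0 in the homozygotes C3618 and C3619 and in the heterozygote C3617. The locus without a gene name measured 22.8, 0 and 9.49 FPKM in C3574, C3618 and C3619 and 4.67 FPKM in C3617. *SNORD91* was listed at 0 in C3574 and C3617 and measured 14.4 and 12.7 FPKM in C3618 and C3619. Thus none was above 0 in every XY homozygote. Within litters, *SNORD91* was higher in homozygotes in L217 (XY, log2 difference 3.86) and L220 (XX d39, 3.60), and the others were not. The library kit selected polyadenylated RNA. Among the 14052 tested loci of 300 bases or longer, limma called 0 (3375 at an unadjusted p under 0.05).

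Across the assembled loci, 1210 (6.92%) were higher and 2118 (12.1%) lower in homozygotes at an unadjusted p under 0.05, and 530 (3.03%) and 992 (5.67%) did not overlap between genotypes. With a common upper quartile the split was 1870 higher and 1113 lower (shift of the median 0.090). Because the annotated table carries no symbols, genes are named below from this table, except for 21 genes that could be paired with their identifiers.

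None of the genes named from here on was called in this contrast, and each adjusted p was at least 0.226. In each direction the 8 genes of lowest p are described, among those with a symbol, without overlap between genotypes and with at least 4 FPKM on average in 1 genotype or both. All of their adjusted p-values were 0.228. The lack of overlap was part of their choice.

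Among the 8 higher genes, *AXIN2*, the feedback inhibitor of canonical WNT signalling that is itself a target of beta-catenin, lies on CFA9 (14560751 to 14589002, plus strand). In the annotated table it measured 34.9, 32.9, 33.0 and 31.8 FPKM in C3509, C3510, C3511 and C3571 and 25.7, 27.1, 22.8, 23.6 and 22.1 FPKM in C3525, C3572, C3573, C3575 and C3616. The lowest homozygote was above the highest heterozygote. The log2 difference was 0.44 (SE 0.087, 95% confidence interval 0.24 to 0.63), with an unadjusted p of 0.000568 and an adjusted p of 0.226 in limma. The two-sided exact permutation p over all assignments of the 9 libraries was 0.00794, the smallest that the design can give. The d34 XX control pool measured 33.0 FPKM, at the level of the homozygotes, and the XY gonads 9.52 to 12.7 FPKM.

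*BRCA1* and *BRCA2*, which act in repair of DNA breaks by homologous recombination, were also among the 8. *BRCA2* measured 6.56, 7.81, 9.91 and 6.24 FPKM in homozygotes and 4.72, 3.15, 1.503, 1.34 and 2.49 FPKM in heterozygotes (log2 difference 1.31, SE 0.265). *BRCA1* had a log2 difference of 0.58 (SE 0.118). The other 5 were *CORTBP2*, a cortactin-binding protein (0.88, SE 0.139), *GIGYF1*, an adaptor of growth factor receptor signalling (0.64, SE 0.118), *ABCC10*, a transporter (1.02, SE 0.192), *TRRAP*, a scaffold of histone acetyltransferase complexes (0.75, SE 0.15), and *PPRC1*, a coactivator of mitochondrial biogenesis (0.47, SE 0.094). Their median transcript length was 6436 bases, against 1708 bases over all loci tested.

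The genes of lowest p in the other direction included components of striated muscle. *MYLPF*, the regulatory light chain of fast skeletal muscle myosin, measured 4.59, 1.05, 0 and 2.11 FPKM in C3509, C3510, C3511 and C3571 and 25.2, 10.025, 10.5, 25.5 and 26.9 FPKM in the heterozygotes (log2 difference -2.96, SE 0.499). *MYL1*, a fast skeletal myosin light chain, measured 0.569, 0.288, 0.383 and 0.426 FPKM in homozygotes and 8.74, 1.79, 3.61, 6.60 and 11.9 FPKM in heterozygotes (-2.22, SE 0.402). Its homozygous mean was under 1 FPKM, so it was tested only through its level in heterozygotes. Within the heterozygotes both genes were lower in C3572 and C3573 than in the other 3.

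The other 6 lower genes were *F13A1*, subunit A of coagulation factor XIII (-0.76, SE 0.143), *ERP29*, a chaperone of the endoplasmic reticulum (-0.46, SE 0.092), *ARL6IP5*, a membrane trafficking protein (-0.52, SE 0.103), *VCPKMT*, a lysine methyltransferase (-0.53, SE 0.086), *DHDH*, a dihydrodiol dehydrogenase (-0.77, SE 0.153), and a locus carrying the name of the lysosomal protease gene *CTSC* (-0.46, SE 0.088). *F13A1* measured 7.91, 6.59, 6.63 and 7.04 FPKM in homozygotes and 9.03, 13.2, 15.6, 13.9 and 12.004 FPKM in heterozygotes. *ERP29* measured 36.6, 30.7, 34.3 and 36.5 FPKM in homozygotes and 44.3, 47.2, 52.9, 50.2 and 44.7 FPKM in heterozygotes. The difference in *ERP29* was a shift of all libraries of a group, with little spread within each. The median transcript length of the 8 lower genes was 894 bases.

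**Figure D1:**
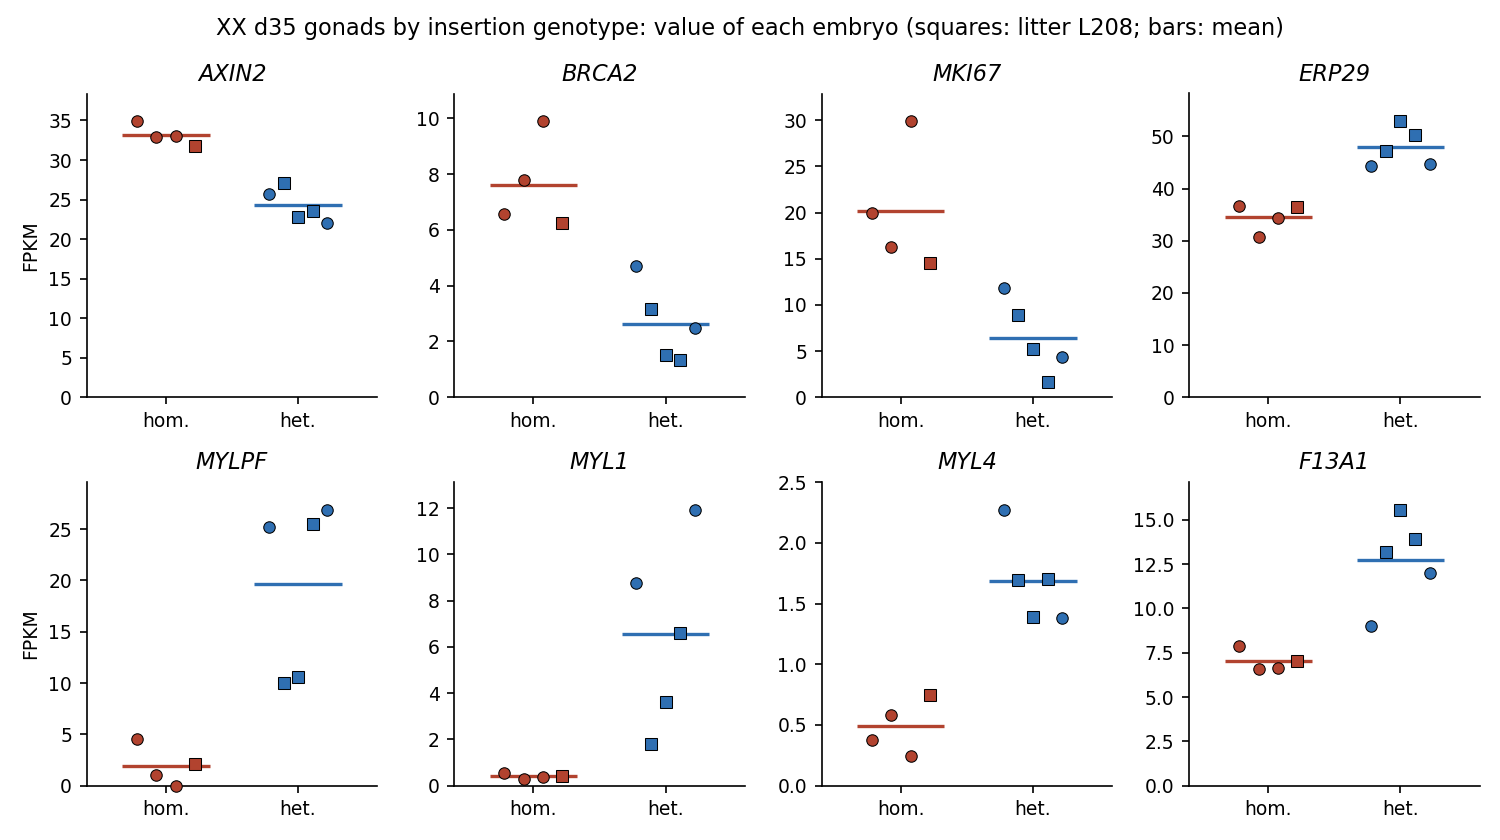
Expression (FPKM, linear axis from 0) of 8 named genes in the 4 homozygous (red) and 5 heterozygous (blue) XX d35 gonads; each point is 1 embryo, squares mark litter L208 and bars the group mean. *AXIN2* is from the annotated table and the other genes from the assembled loci. The genotypes do not overlap in any panel, so C3571 of L208 necessarily lies on the side of the homozygotes of L194.

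Transcript length was related to the difference across loci. Over loci with a mean of at least 4 FPKM, the median log2 difference between homozygotes and heterozygotes was -0.34 in 798 loci of up to 500 bases, -0.29 from 500 to 1000 bases, -0.17 from 1000 to 2000, -0.04 from 2000 to 4000, 0.07 from 4000 to 8000 and 0.53 in 286 loci over 8000 bases. In the longest class 160 loci were higher and 3 lower at an unadjusted p under 0.05. As a measure per library, the median deviation of the longest class minus that of the shortest was 0.480, 0.470, 0.718 and 0.399 in the homozygotes and 0.379, 0.021, -0.783, -1.292 and -0.161 in C3525, C3572, C3573, C3575 and C3616. The lowest homozygote was just above the highest heterozygote, C3525, with means of 0.517 ± 0.139 (SD, n = 4) and -0.367 ± 0.667 (SD, n = 5) and an exact permutation p of 0.0159.

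The same measure lay between -0.496 and -0.275 in the 4 XY gonads of d35, homozygous and heterozygous, and between 0.463 and 0.632 in the 3 XX gonads of litter L220. It thus differed between sets of libraries of the same genotype. Its cause was not tested.

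**Figure D2:**
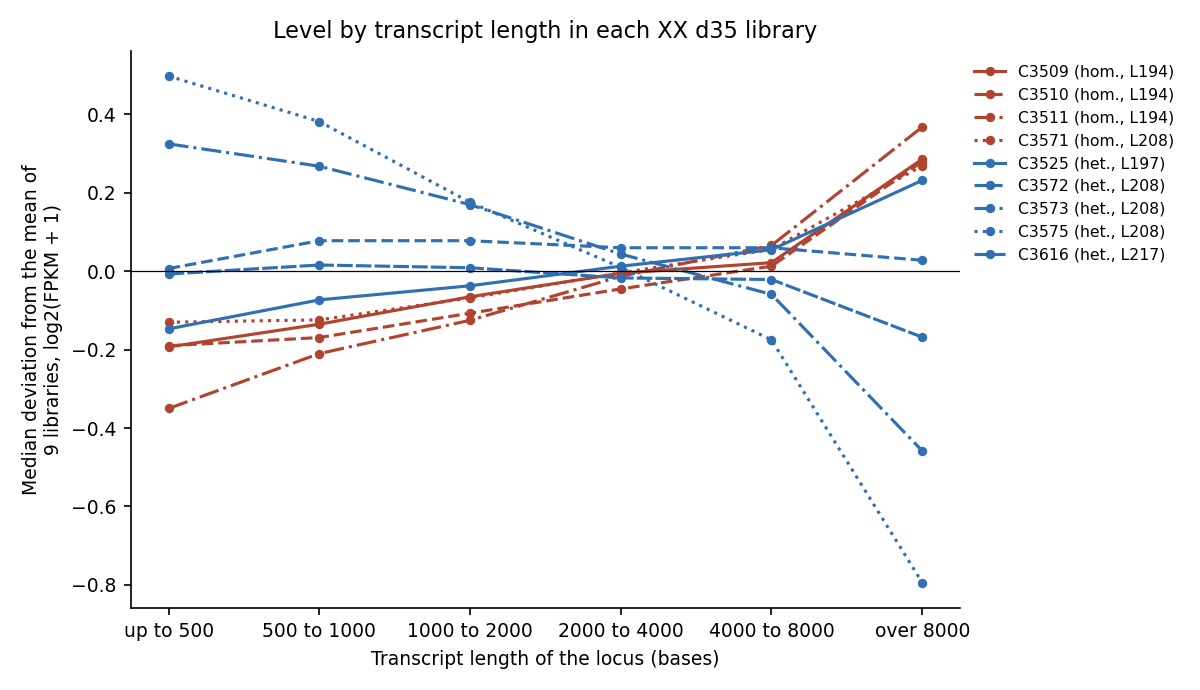
Median deviation of each XX d35 library from the mean of the 9 libraries (log2(FPKM + 1)) in 6 classes of transcript length (bases), with homozygotes in red and heterozygotes in blue. C3575 and C3573 fall with length by the most, the 4 homozygotes rise, and the heterozygote C3525 lies close to them.

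With this trend removed in each library, 3 loci were called, none of 300 bases or longer, and 1249 loci were higher and 1423 lower at an unadjusted p under 0.05. *AXIN2* then had the lowest p of the loci with a symbol and a mean of at least 4 FPKM (log2 difference 0.48, unadjusted p = 0.000119, adjusted p = 0.298). *CORTBP2* (0.74), *ABCC10* (0.84), *BRCA2* (0.80), *MYLPF* (-2.71), *MYL1* (-1.98), *ERP29* (-0.48) and *F13A1* (-0.81) kept most of their difference. *TRRAP* (0.17, unadjusted p = 0.268), *BRCA1* (0.23, unadjusted p = 0.0799) and *VCPKMT* (-0.28, unadjusted p = 0.0397) did not, by limma.

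In the ovary pathway, *AXIN2* alone did not overlap between genotypes among the genes read from the annotated table. The ligand *RSPO1* measured 42.4, 26.3, 21.5 and 25.3 FPKM in homozygotes and 21.8, 31.7, 37.8, 35.6 and 29.1 FPKM in heterozygotes, so that the groups overlapped. The means were 28.9 ± 9.23 (SD, n = 4) and 31.2 ± 6.26 (SD, n = 5), with a log2 difference of -0.13 (95% confidence interval -0.60 to 0.34). In the assembled loci it was -0.14, and it ranged from -0.358 without C3509 to 0.032 without C3511, so its sign rests on single libraries. Both were above the XY range of 4.97 to 9.05 FPKM, and the d34 XX control pool measured 36.2 FPKM. A difference of *RSPO1* anywhere within the 95% confidence interval is compatible with these values.

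*WNT4* measured 24.5 ± 6.00 FPKM (SD, n = 4) in homozygotes and 19.7 ± 3.81 FPKM (SD, n = 5) in heterozygotes (log2 difference 0.29, confidence interval -0.13 to 0.72). In *CTNNB1*, the effector of the pathway, the means were 456 ± 24.9 and 487 ± 19.1 FPKM (-0.10, interval -0.30 to 0.11). *FOXL2* measured 43.1, 31.0, 26.5 and 29.6 FPKM in homozygotes and 13.5, 26.9, 23.8, 3.40 and 36.6 FPKM in heterozygotes (0.91, interval -0.29 to 2.12). The low values in C3575 and C3525 set the wide interval. Without C3575 the log2 difference of *FOXL2* in the assembled loci was 0.26, against 0.75 with it. *LHX9*, a transcription factor of the early gonad, measured 67.7 ± 20.6 and 101 ± 42.1 FPKM (-0.53, interval -1.16 to 0.11), with the highest value, 171.4 FPKM, in C3575.

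Of the receptors, *LGR4*, which binds R-spondins, had means of 38.1 ± 5.26 and 26.6 ± 8.77 FPKM (log2 difference 0.55, unadjusted p = 0.0387, adjusted p = 0.241, exact permutation p = 0.0714), with C3575 lowest at 15.2 FPKM. *LRP5* and *LRP6*, co-receptors for WNT, had log2 differences of 0.33 (interval -0.04 to 0.70) and 0.39 (interval -0.15 to 0.93). *ZNRF3*, the ubiquitin ligase that removes these receptors, had one of 0.24 (interval -0.26 to 0.73). Its relative *RNF43* was at 0.351 to 0.684 FPKM, below the level tested. *LEF1*, the transcription factor, measured 66.5 ± 4.83 and 56.1 ± 8.57 FPKM (0.25, interval -0.01 to 0.51), and *SFRP2*, a secreted WNT antagonist, 53.0 ± 7.81 and 54.6 ± 13.5 FPKM. Of these 21 genes, *AXIN2* alone had an exact permutation p under 0.05 in the annotated table (4.76%).

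Of the 46 genes listed for R-spondin and WNT signalling, 42 were found and 36 tested, and the median log2 difference was 0.018, against -0.056 over all loci. At an unadjusted p under 0.05, 4 were higher (*AXIN2*, *BCL9*, a beta-catenin cofactor, *LRP6*, and *GSK3B*, the kinase that marks beta-catenin for destruction) and 2 lower (*FZD2*, a receptor, and *PORCN*, which acylates WNT proteins). With a common upper quartile, 8 were higher and 1 lower, where 1870 and 1113 of all 17514 loci were. *AXIN2* and 1 other gene did not overlap between genotypes, both higher. Over all loci tested as deposited, 6.92% were higher and 12.1% lower at this threshold, and 3.03% and 5.67% did not overlap. As deposited, the share of the list that passed in either direction was near that of all loci (19.0%).

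**Figure D3:**
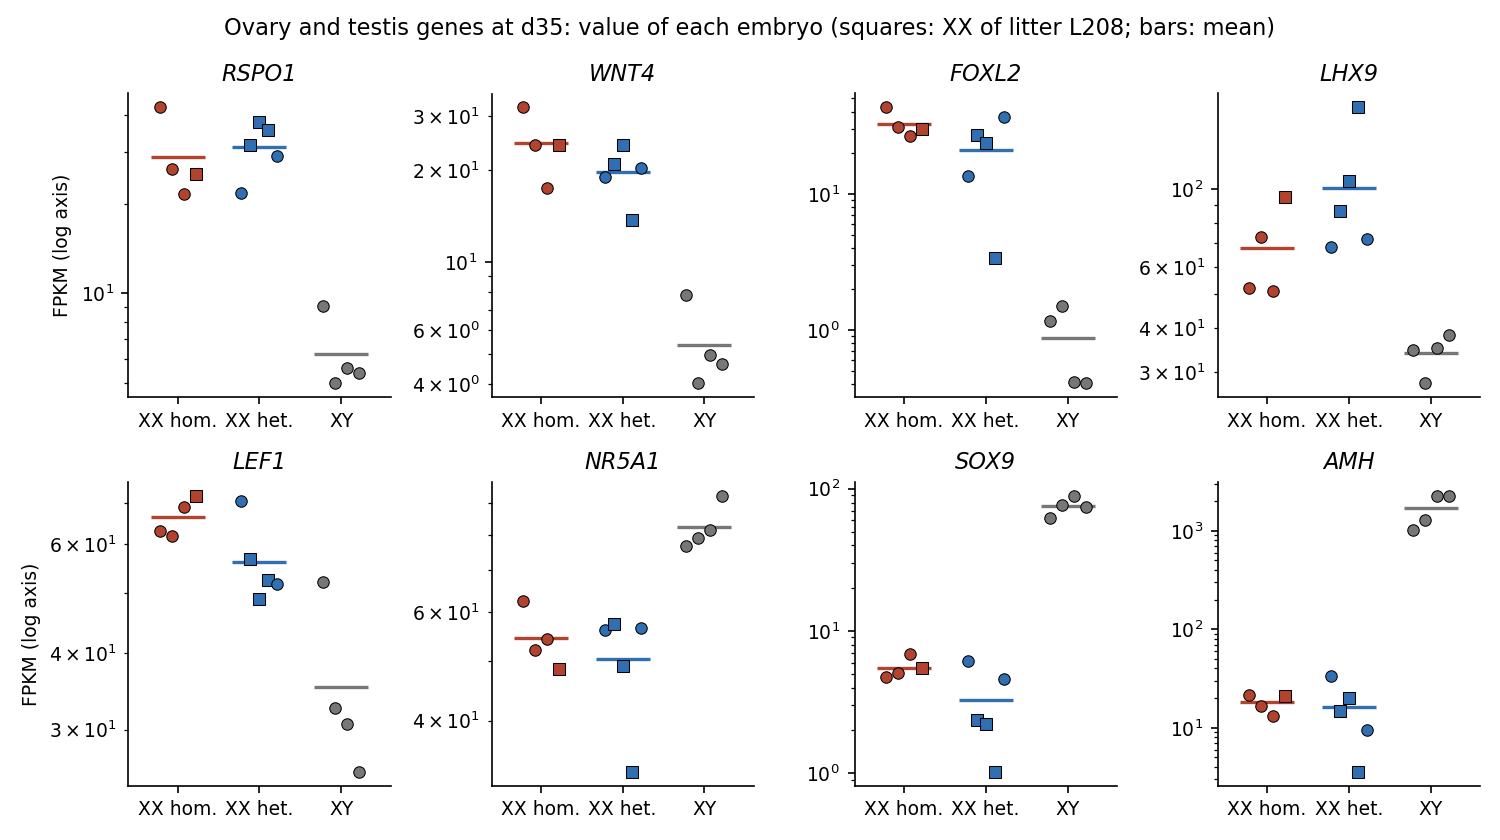
Expression (FPKM, log axis) of ovary and testis genes of the annotated table at d35 in 4 homozygous XX (red), 5 heterozygous XX (blue) and 4 XY (grey) gonads; each point is 1 embryo, squares mark XX embryos of litter L208 and bars the mean. The XX genotypes overlap in every panel shown, and both lie apart from XY in *SOX9* and *AMH*.

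*SOX9* and *AMH* were far below their XY levels in both genotypes. *SOX9* measured 4.74, 5.08, 6.85 and 5.47 FPKM in homozygotes and 6.19, 2.38, 2.21, 1.02 and 4.61 FPKM in C3525, C3572, C3573, C3575 and C3616. The heterozygote C3525 was above 3 of the 4 homozygotes, and the 3 heterozygotes of L208 were the lowest of the 9. The log2 difference was 0.74 (SE 0.33, unadjusted p = 0.0496, adjusted p = 0.249, exact permutation p = 0.103), and in the assembled loci it was 0.67 with C3575 and 0.45 without it. Within litters the log2 difference of *SOX9* was 1.21 in L208 and 0.15 in the XY gonads of L217. In litter L220 at d39 it was 0.86, with 5.98 FPKM in C3630 against 3.61 and 2.23 FPKM in C3632 and C3633. In each of these litters a genotype was represented by a single embryo. *SOX9* lies on CFA9 from 8275049 to 8280390. *AMH* measured 18.1 ± 3.96 FPKM (SD, n = 4) and 16.3 ± 11.4 FPKM (SD, n = 5), between 3.57 FPKM in C3575 and 33.6 FPKM in C3525.

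Of 24 genes listed for Sertoli cells and testis, 13 were tested, with a median difference of -0.13. At an unadjusted p under 0.05, *PTCH1*, the hedgehog receptor (0.52), and *INHBB*, an inhibin and activin subunit (0.71), were higher. *DMRT1*, a transcription factor of germ and Sertoli cells (-0.30), and *ETV5* (-0.31) were lower. Over all loci tested, 6.92% were higher and 12.1% lower at this threshold. *DMRT1* measured 5.41, 5.78, 6.13 and 5.38 FPKM in homozygotes and 9.73, 6.88, 6.14, 6.83 and 6.93 FPKM in heterozygotes, and the margin between the groups was smaller than the spread within either. With a common upper quartile 3 Sertoli and testis genes were higher and 0 lower, where 1870 and 1113 of all 17514 loci were. Of 18 genes listed for pre-granulosa cells and ovary, 16 were tested, 0 passed an unadjusted p of 0.05 in either direction and 3 were higher with a common upper quartile.

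Of the genes of the bipotential gonad, 4 of 16 tested passed an unadjusted p of 0.05, where 19.0% of all loci did. *NR5A1*, a regulator of gonadal and steroidogenic genes, measured 54.4 ± 5.91 and 50.4 ± 10.2 FPKM, and *WT1* 88.1 ± 3.87 and 85.9 ± 7.00 FPKM (0.04, interval -0.16 to 0.24). *GATA4*, read from the assembled loci, measured 48.1 ± 3.14 and 43.1 ± 9.30 FPKM. Those that passed were the insulin family receptors *INSR* (0.43) and *IGF1R* (0.46) and the homeobox gene *EMX2* (0.20), which were higher, and *TCF21* (-0.77), which was lower. *INSR* did not overlap between genotypes. *TCF21*, a factor of mesenchymal progenitors, measured 15.7 to 33.96 FPKM in homozygotes and 25.0 to 71.6 FPKM in heterozygotes, the latter in C3575.

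Whole gonads were sequenced, so fewer cells of a type and less RNA per cell cannot be told apart. Of 10 genes listed for skeletal muscle, 5 were tested, and all 5 were lower in homozygotes at an unadjusted p under 0.05 (12.1% of all loci), 4 of them without overlap (5.67%). Of these, *MYL1* and *MYL4* were tested only through their level in heterozygotes. *TNNI1*, slow skeletal troponin I, measured 1.43 ± 0.324 FPKM (SD, n = 4) against 2.81 ± 0.682 FPKM (SD, n = 5), *TNNT3*, fast troponin T, 1.24 ± 0.195 against 2.38 ± 0.709 FPKM, and *MYL4*, an embryonic myosin light chain, 0.488 ± 0.2204 against 1.69 ± 0.363 FPKM. The summed level of the list was 5.49 to 7.83 FPKM in homozygotes and 12.7 to 28.4 FPKM in heterozygotes. In each L208 heterozygote it was above that of the homozygous littermate C3571.

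Among untested members, *MYOG*, a myogenic regulator, lay between 0 and 0.167 FPKM in homozygotes and between 0.397 and 1.16 FPKM in heterozygotes. *MYOD1* lay between 0.009 and 0.077 and between 0.1 and 0.237 FPKM. The remaining untested members overlapped between genotypes. *MYH3* lay at 0.041 to 0.432 FPKM in homozygotes and 0.324 to 1.14 FPKM in heterozygotes. *MYH8* lay at 0 to 0.019 and 0 to 0.015 FPKM, and *CKM* at 0 to 0.212 and 0.052 to 0.24 FPKM. All 5 tested genes were lower at an unadjusted p under 0.05 without C3575 too. The differences were of similar size with the length trend removed (median -0.61, against -0.64) and without C3575 (median -0.66). The muscle genes did not follow genotype elsewhere. The summed level was 17.5 to 29.3 FPKM in the XY gonads, 3 of 4 homozygous. In litter L220 it was 11.5 FPKM in the homozygote C3630 and 9.31 and 6.61 FPKM in the heterozygotes. The part of muscle RNA in the other differences was not tested.

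Of 22 germ cell genes listed, 8 were tested. At an unadjusted p under 0.05, 3 were lower in homozygotes (12.1% of all loci) and 0 higher (6.92%). The 3 lower genes, *DPPA5*, *LIN28A* and *DPPA3*, were all highest in C3575. *DPPA5*, a marker of primordial germ cells, measured 1.04, 1.56, 0.97 and 0.45 FPKM in homozygotes and 3.80, 2.90, 4.44, 22.0 and 2.96 FPKM in heterozygotes. *LIN28A*, an RNA-binding protein of germ and stem cells, measured 1.94, 2.06, 2.77 and 2.72 against 3.70, 4.20, 5.18, 8.99 and 3.95 FPKM. Without C3575 the log2 difference of *DPPA5* went from -1.66 to -1.19 and that of *LIN28A* from -0.83 to -0.64. C3575 held the highest value of both genes, so leaving it out could not make the genotypes overlap. The median of the list went from -0.50 to -0.18. In litter L220 the median of the list was 0.26, opposite to d35. *KIT*, the receptor that migrating germ cells depend on, measured 4.81 to 7.05 and 3.81 to 8.32 FPKM, with its lowest value in C3575, and the meiotic gene *STRA8* was at most 0.249 FPKM in any of the 9.

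Of the 16 cell cycle genes tested, 14 had a negative difference (median -0.23) and 2 a positive one, where 9719 of all 17482 loci were negative (median -0.056). Without C3575 the median of the list was -0.11, against -0.058 over all loci. *MKI67*, whose protein marks cycling cells, was higher at an unadjusted p under 0.05 and did not overlap. It measured 19.9, 16.3, 29.9 and 14.5 FPKM in homozygotes and 11.8, 8.86, 5.245, 1.68 and 4.36 FPKM in heterozygotes (log2 difference 1.66, SE 0.419, unadjusted p = 0.00295). Its transcript of 7698 bases is among the long ones. *TK1*, thymidine kinase, was lower (-0.56).

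In the retinoic acid list (14 tested, median -0.10) *CRABP2*, a binding protein, measured 161, 166, 141 and 207 FPKM in homozygotes and 269, 231, 251, 235 and 220.6 FPKM in heterozygotes (-0.52, SE 0.125), without overlap. Of 10 steroidogenic genes tested, *SRD5A1*, a steroid reductase, was lower (-0.47), at the edge of an unadjusted p of 0.05. Their summed level was 1759 to 2683 FPKM in homozygotes and 1314 to 2791 FPKM in heterozygotes, and C3575 was the lowest.

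Of 9 erythroid and 11 endothelial genes tested, 0 passed an unadjusted p of 0.05 in either direction (19.0% of all loci). The same held for 3 adrenal, 3 liver and 14 immediate early and stress genes. Of 10 macrophage and immune genes, *TYROBP* was lower (-0.58), and of 7 mesonephros and kidney genes, *EPCAM* was lower (-0.78). *LRRN4* of the surface epithelium list (3 tested, -1.26) measured 3.97 to 8.70 FPKM in homozygotes and 4.895 to 36.7 FPKM in heterozygotes. The summed level of that list was 315 FPKM in C3575 and at most 148 FPKM in any other of the 9.

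In the 7 hypoxia and glycolysis genes, *BNIP3* (-0.56) and *EGLN3* (-0.63) were lower at an unadjusted p under 0.05 (12.1% of all loci). At the same threshold *STMN2*, tested only through its level in heterozygotes, was lower among 3 neural genes (-0.998), and *FDPS* among 16 of cholesterol synthesis (-0.38). Of 19 interstitial and mesenchyme genes, *GLI2* was higher (0.47) and *LUM* (-0.84) and *TCF21* lower.

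**Figure D4:**
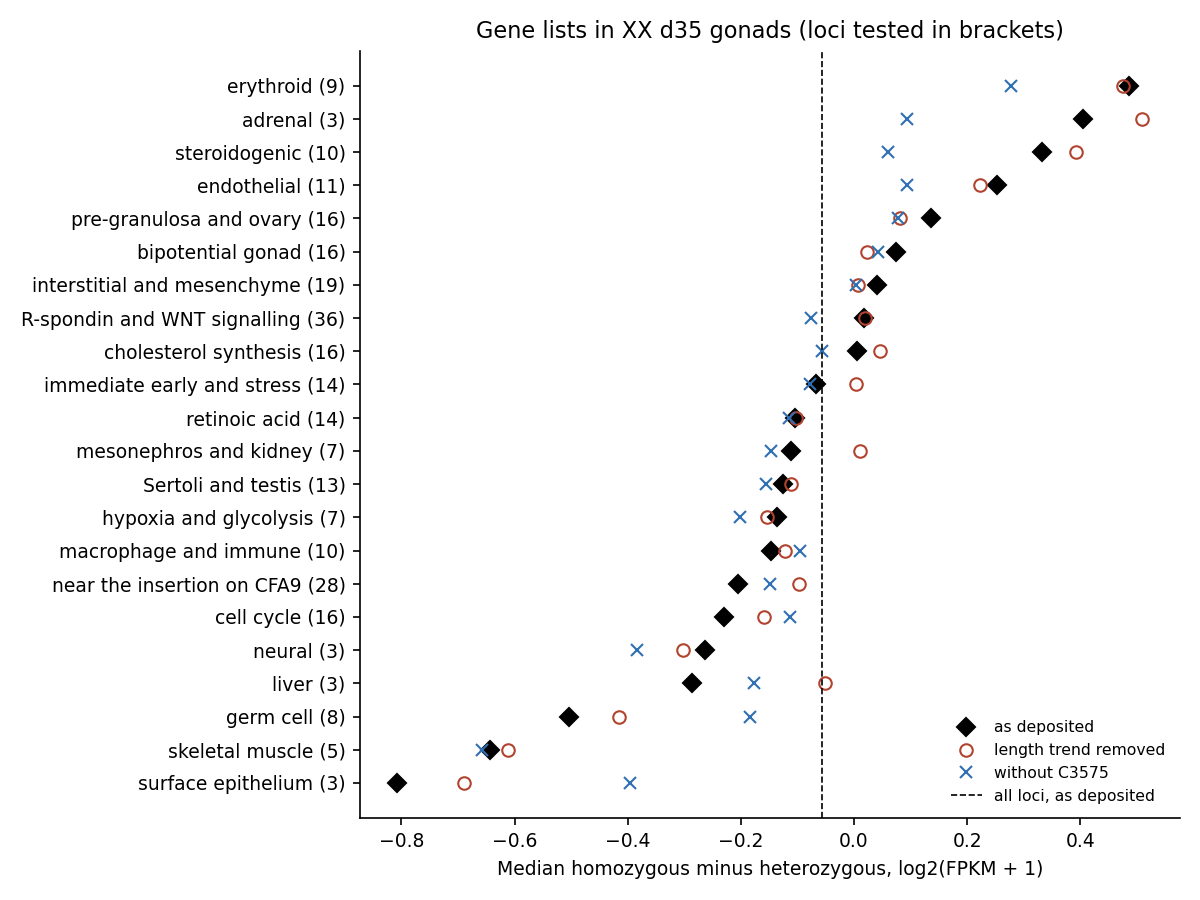
Median log2 difference between homozygous and heterozygous XX d35 gonads for each gene list (tested loci in brackets), as deposited (black diamonds), with the length trend removed (red circles) and without C3575 (blue crosses); the dashed line is the median of all tested loci as deposited, -0.056. The skeletal muscle median keeps its place in all 3 settings, whereas the germ cell, surface epithelium and steroidogenic medians move toward 0 without C3575.

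Of 42 genes listed near the insertion on CFA9, 28 were tested, 2 were higher and 7 lower in homozygotes at an unadjusted p under 0.05 (6.92% and 12.1% of all loci), with a median of -0.21, or -0.10 with the length trend removed. With a common upper quartile 3 were higher and 4 lower, where 1870 and 1113 of all 17514 loci were. *FAM104A* (6948627 to 6964550, plus strand) measured 8.48, 9.20, 6.59 and 6.96 FPKM in homozygotes and 13.9, 10.99, 16.1, 15.1 and 9.34 FPKM in heterozygotes (-0.66, SE 0.168). *ICT1*, a mitochondrial ribosome rescue factor (5448781 to 5457173, minus strand), measured 9.91 ± 0.778 against 14.8 ± 3.80 FPKM (-0.50, SE 0.166). *GRB2*, an adaptor of receptor tyrosine kinases (5107995 to 5182130, plus strand), measured 29.2 ± 1.74 against 34.4 ± 2.42 FPKM (-0.23, SE 0.085). Of the 28 tested, 4 did not overlap between genotypes, all lower (5.67% of all loci), and these 3 genes were among them.

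*GPRC5C*, an orphan receptor, overlapped (-0.58), with 3.63 FPKM in the heterozygote C3616. *SDK2*, an adhesion molecule, was higher by 1.25, with the lowest value, 1.40 FPKM, in C3575. In litter L220 the log2 difference of *FAM104A* was 0.20 and that of *ICT1* -0.20, and in the XY gonads of L217 they were -0.24 and -0.02.

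Within litter L208 the genotypes could be compared among full littermates, 1 homozygote against 3 heterozygotes. In C3571 all 8 higher genes of lowest p were above all 3 littermates, and all 8 lower genes were below them. Over all tested loci, C3571 was above all 3 in 22.8% and below them in 30.4%. The genes were chosen for a lack of overlap between genotypes, C3571 and its littermates included. Their side in L208 was therefore fixed in advance, and no conclusion is drawn from it. In the homozygote of litter L220 at d39, which had no part in the choice, 7 of the 8 higher genes were above the mean of the littermates (38.7% of loci) and 6 of the 8 lower genes below it (49.8%). The count of 7 holds *AXIN2* at 0.004 in the assembled loci. Loci with a difference of 0 enter neither share, and the shares are not matched for transcript length. The higher genes were long and the lower ones short. The length measure was also higher in C3630 (0.632) than in C3632 and C3633 (0.463 and 0.464). The part of length in these counts was not tested. In the XY gonads of L217 the log2 difference was 0.00 to 0.38 over the 8 higher genes and -0.47 to 0.63 over the 8 lower genes.

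*AXIN2* differed by -0.004 between C3630 and its littermates (31.9 against 32.8 and 31.2 FPKM) and by 0.09 between the XY genotypes. *MYL1* differed by 1.27 in litter L220, opposite to d35, and *MYLPF* by 0.43. *CORTBP2* was at 0.42 and *ABCC10* at 0.48 in L220, toward the d35 direction. The difference between litters L208 and L220 was tested for each named gene: for *AXIN2* it was 0.37 (adjusted p = 0.837, annotated table) and for *MYL1* -2.96 (adjusted p = 0.215), so neither passed.

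**Figure D5:**
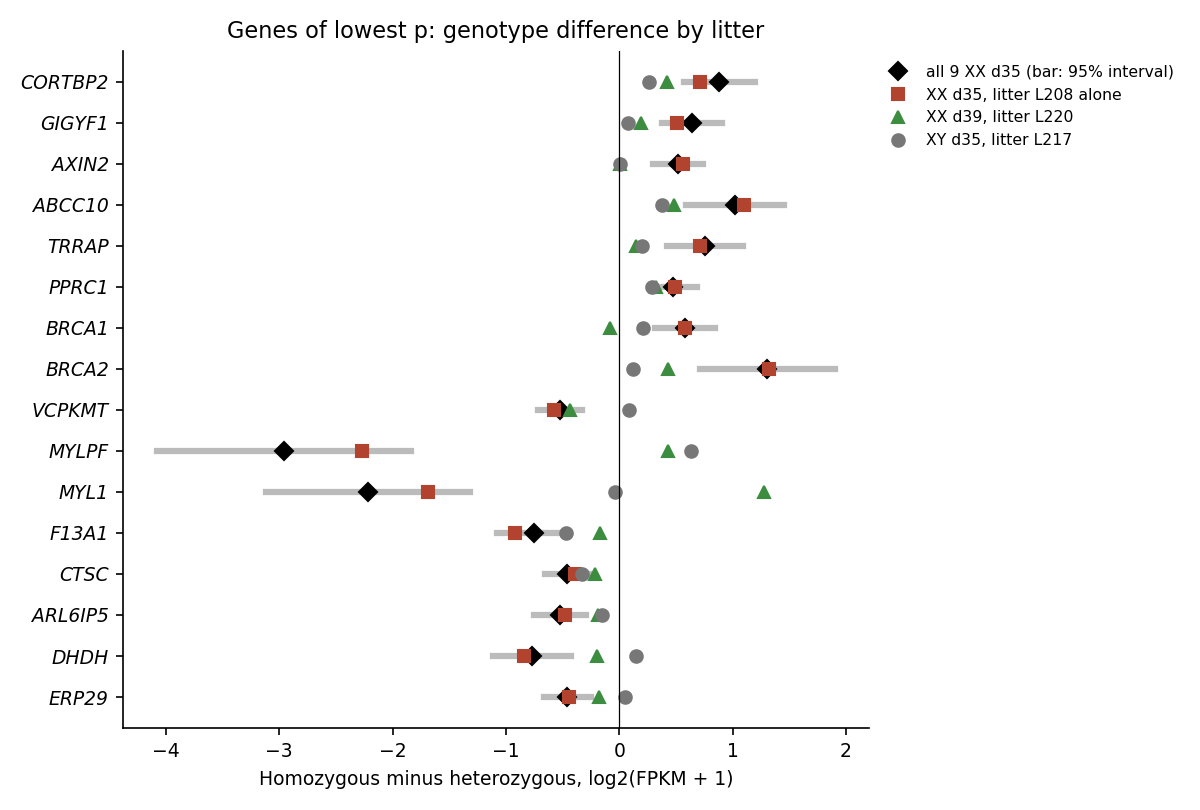
Log2 difference, homozygous minus heterozygous (log2(FPKM + 1)), of the 16 genes of lowest p in all 9 XX d35 gonads (black, with the 95% confidence interval), in litter L208 alone (red), in XX d39 litter L220 (green) and in XY d35 litter L217 (grey). Points of L208 lie on the side of the whole comparison for all 16 genes, which the choice of genes without overlap fixed in advance. In L220 *MYLPF* and *MYL1* lie on the other side.

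With litter as a factor the genotype term rests on L208. Of the annotated genes 38 were called (0.279%), 37 of them higher, and 30 of the 38 were above 0 in 1 library only. Of the assembled loci 216 were called (1.24%), of which 211 were shorter than 300 bases. The small nucleolar RNAs *SNORD34* and *SNORD95* are examples, at 23.1 and 61.8 FPKM in C3571 and listed at 0 in the other 8 libraries. When only loci of 300 bases or longer were fitted, 0 were called (1230 at an unadjusted p under 0.05), and with the length trend removed as well, 2.

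Of these 2, a locus without a gene name at chr18:51700114-51707490 measured 20.8 FPKM in C3571 and 0.80 to 3.09 FPKM in the other 8. A short annotated stretch inside it, named *MALAT1* for the long nuclear RNA (chr18:51703501-51703591), measured 37.2 FPKM in C3571 and 1.28 to 7.12 FPKM elsewhere. The other, without a gene name at chr9:32404277-32409467 on the minus strand, measured 5.21 FPKM in C3571 and 0.05, 0 and 0 FPKM in C3572, C3573 and C3575. Outside the litter it was at 4.54 to 8.14 FPKM in both genotypes, heterozygotes C3525 and C3616 included. It thus set the 3 heterozygotes of L208 apart from the other 6 libraries rather than the genotypes.

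Adding the XX embryos of d37 and d39 (17 libraries of 8 litters) left 2 annotated genes called (0.0146%) and 13 assembled loci (0.0543%), all 13 shorter than 300 bases. Adding the XY littermates of d35 (13 libraries) left 0 annotated genes (0%, lowest adjusted p 0.794, 481 at an unadjusted p under 0.05) and 1 assembled locus (0.00577%). Among the genes of lowest p in this last fit were *F13A1*, *PPRC1*, *PTCH1* and *ADH5*, an alcohol dehydrogenase, each with an adjusted p of at least 0.786. *ADH5* measured 15.8 to 18.8 FPKM in homozygotes, 14.6 and 17.3 FPKM in C3525 and C3616, and 28.9 to 37.9 FPKM in the heterozygotes of L208.

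The 4 litters were compared as well. The test of the litter terms given genotype called 81 annotated genes (0.594%) and 440 assembled loci (2.52%), of which 427 were shorter than 300 bases. Of the 81 annotated genes, 68 were above 0 in 1 library only. At an unadjusted p under 0.05 this test held 446 annotated genes, and the test of genotype in the same fit 822. The litter test takes several terms together and the genotype test a single term, so these counts do not rank litter against genotype. Among longer loci with symbols, *RAD51B*, a recombination gene on chromosome 8, measured 10.6 to 12.6 FPKM in L194, 15.7 to 23.5 FPKM in L208, 13.5 FPKM in C3525 and 4.69 FPKM in C3616. *PRKD1*, a protein kinase, measured 32.9 FPKM in C3525 and 13.7 to 19.2 FPKM in the other 8. *SDSL*, a serine dehydratase-like gene, was highest in C3616 (21.6 FPKM) and lowest in C3525 (3.61 FPKM). In L208 the genotypes were close in *SDSL*, at 6.81 FPKM in C3571 and 8.25 to 9.01 FPKM in its littermates. Litters L197 and L217 are each represented by 1 XX embryo of d35, so litter and embryo cannot be told apart among these libraries.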

How the data were processed

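RNA-seq of paired embryonic gonads was taken from 2 tables of the same 55 libraries, holding 24581 annotated genes and 58781 loci of a guided transcript assembly. The deposited FPKM were made by the authors from single-end reads of a poly(A) kit: reads were trimmed (cutadapt, with version 1.5 in the submitters' processing notes and a different one in the paper), aligned by TopHat2 2.0.13 against CanFam3, and normalised with the Cuffnorm step of Cufflinks 2.2.1. Libraries were pooled for sequencing by group. FPKM divides by transcript length and library size, so counts are not recovered and depth is known only relative to C3510, taken from the most frequent ratio between low values (0.15 FPKM or less) of a library and those of 5 reference libraries. Unused columns of per-sample values numbered 0. The depositors' exon positions and gene names served for locus lengths (longest annotated transcript) and coordinates.

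Genotypes and litters were those the study lists for each embryo identifier. Genotypes were compared on log2(FPKM + 1) in R 4.3.3 with the package limma 3.58.1, using moderated variances with an intensity trend, and data.table (version 1.17.8) for input. Tests were two-sided, p-values were adjusted by Benjamini-Hochberg over genes averaging 1 FPKM or more in either genotype, and an adjusted p under 0.05 was a call. A fold change on this scale understates that of low genes. Single genes were tested with two-sided exact permutation tests over 126 assignments. Models with litter, and with litter and sex, were fitted with fixed factors. The length trend was removed in each library with a lowess curve (span 0.2) on log2 length. The fit was tested on simulated data.

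Genes named were, with symbols only, up to 12 called genes per direction without overlap and with a mean of at least 4 FPKM, or where fewer than 6 were called, the 8 of lowest p; a fixed set of ovary, testis and CFA9 genes; up to 4 genes of lowest p in each of 22 lists (406 symbols); and up to 8 of lowest p in each fit with litter. Genes and loci named beyond this rule (called loci without a symbol, other members that passed an unadjusted p of 0.05, untested members, *KIT*, and the long loci of the litter fits) were chosen after their values were seen. Members and lists were chosen with earlier results of these data known. The lists cover R-spondin and WNT signalling, pre-granulosa, Sertoli, bipotential gonad, steroidogenic, adrenal, germ cell, interstitial, endothelial, macrophage, erythroid, mesonephros, surface epithelium, liver, muscle, neural, cell cycle, stress, hypoxia, cholesterol, retinoic acid and CFA9 genes. Values of some single genes are not reported here. The lists were described by counts and medians, without a set test. Alternatives were other pseudocounts, filters and scalings, the assembled loci, limma without trend, litter as a random block, 1 value per litter, array weights, stricter calls, omission of short loci or of the length trend, and leaving out each library in turn.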

Additional observations from a re-analysis of the deposited data

Results flagged for a closer look

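Among 248 sets of named genes or summed lists within a genotype, 17 (6.85%) held a library far from the rest of its group, where chance gives about 5%. Of these 7 were in C3575 and 4 in C3511. In the heterozygote C3575 the high values were those of *DPPA5* (22.0 FPKM, others 2.90 to 4.44), *NANOS3* (3.49, others 0.312 to 0.768), *EGLN3* (44.1, others 21.5 to 23.6) and the summed germ cell list (62.3, others 22.9 to 29.7). The low values there were those of *SCARB1* (35.1, others 87.4 to 120), *NR5A1* (33.0, others 49.0 to 57.3) and the summed steroidogenic list (1310, others 2330 to 2790).

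In the homozygote C3511 the spectrin gene *SPTB* (6.11 FPKM, others 0.468 to 0.878) and the summed erythroid list (380, others 60.6 to 81.7) were high, as was *BRCA1* (9.82, others 7.45 to 7.74), and *GPRC5C* was low (2.98, others 3.98 to 4.17). In C3509 *EPCAM* (8.84, others 15.5 to 15.7) and *PTCH1* (6.94, others 8.78 to 8.90) were low and *IGF1R* was high (24.4, others 21.5 to 21.9). *STAR* was low in C3571 (95.3, others 238 to 260). In heterozygotes *DMRT1* was high in C3525 (9.73, others 6.14 to 6.93) and *SERPINA1* in C3573 (4.92, others 0.224 to 0.873).

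The genotype difference was larger or smaller in litter L208 at d35 than in litter L220 at d39 for 4 named loci in the assembled table, by an interaction term in limma. The difference of differences was -1.148 for *ADH5* (adjusted p = 0.0261), 1.038 for *PTCH1* (adjusted p = 0.0499), 4.59 for *SNORD34* and 5.972 for *SNORD95*. Litter and gestational day cannot be told apart here, and *SNORD34* and *SNORD95* were above 0 in C3571 alone of the XX d35 libraries. Fitted over loci of 300 bases or longer, the lowest adjusted p among named genes was 0.861.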

How the results depend on the processing

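The 2 genes called between genotypes were 2 or 3 under another pseudocount, filters, scaling, limma without trend, litter as a random block (correlation within litter -0.0149), 1 value per litter and array weights, which gave C3575 0.174. They were 3 in the assembled loci, as deposited or with the length trend removed, and 0 among loci of 300 bases or longer. Leaving out each library gave 1 to 3, with 1 without C3525 or C3573. With litter as a factor, 38 calls became 78 with any value above 0, 15 at a mean of 4 FPKM, 216 in assembled loci, 0 among those of 300 bases or longer, 2 of these with the trend removed, and 39 to 58 when a library was left out (58 without C3510). With d37 and d39 added, 2 became 4, 1, 13 and 0 in the same first 4 settings, 14 with L208 alone informative and 20 with L220 alone. Leaving out a library gave 2 to 2. With XY added, 0 became 1 in assembled loci and 0 to 19 when a library was left out (19 without C3617, the only XY heterozygote, and 1 without C3619). Litter differences went from 81 to 180 with any value above 0, 34 at a mean of 4 FPKM, 440 in assembled loci and 2 among longer ones. Single genes with an exact p under 0.05 were 1, 2 in assembled loci, and 1 to 4 when a library was left out (4 without C3525, 2 without C3571).

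Among 107 named genes, no call changed, and a sign changed for *SFRP2* (0.033) and *WT1* (0.093) with a common upper quartile, for *MAP3K4* (-0.074) and *SFRP2* (0.032) with the length trend removed, and for *WT1* in the annotated table (0.039). When a library was left out it changed for *WT1* (-0.032 to 0.033, with 0.009, 0.018 and 0.033 without C3510, C3511 and C3525), without C3511 for *RSPO1* (-0.358 to 0.032), and without C3525 for *ALB* (-0.006 to 0.372), *ELAVL4* (-0.563 to 0.146) and *SFRP2* (-0.186 to 0.058). The cause was not tested. Omission of the length trend and of loci under 300 bases was chosen after seeing the data. Litter linked the genotypes in L208 and L220 and was fitted as a factor, as above. No paired analysis was possible because, apart from litter, the genotypes share no replicate numbers. Depth in counts is unknown, and with 4 and 5 embryos of 4 litters only L208 separates genotype from litter.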
